A study of Citrullus lanatus with 6 samples.

Results

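Leaf RNA of 3 drought-stressed watermelon plants (Citrullus lanatus, cultivar Crimson Sweet) and of 3 well-watered control plants was sequenced, with 1 library per plant. All plants were 89 days old and were sampled 8 days after watering was first withheld from the drought group. Pots of the drought group were held at 35 ± 5% water content and control pots at 95 ± 5%, and cultivar, age and sampling day were shared by both groups. The described genes are the 100 genes with the highest mean FPKM of the 3 control plants, out of the 19742 genes of the deposited table. They are called members here and were chosen by measured values: the mean FPKM (reads scaled by gene length and by library total) over control plants 1, 2 and 3, with drought plants not used in the choice. A gene chosen for a high value in some plants tends to be lower in any other plant, so a lower level of a member in drought plants is favoured by the choice. For this reason the differences between drought and control plants are given as descriptions, beside the share of all tested genes that behave in the same way.

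A small number of genes supplies a large part of the messenger RNA of a leaf. Among them are usually the nuclear genes of the light-harvesting antenna, whose chlorophyll-binding proteins collect light and pass its energy to the photosystems, together with genes for metal binding, lipid transfer, defence and the cell wall. Under drought, leaves close their stomata, take up less carbon dioxide and make proteins that protect membranes and other proteins, so the messages that fill the RNA pool can be replaced by others.

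Most members had no description in the sources used. A description was found for 25 of the 100, of which 22 came from the supplementary tables of genes that the study called and 3 from the deposited table itself. The other 75 are given by their identifier alone. Since descriptions exist mainly for genes that differed between these same libraries, the described members are not a fair sample of all 100, and the 12 members that passed the test below were all among the 25. The first rank outside the choice was held by ClCG04G009480, described as an aquaporin, and the last ranks inside it by Novel00581, ClCG01G001420 and ClCG02G022970. Their control means were 1004 FPKM for Novel00581 at rank 98, 962 for ClCG01G001420 at rank 99 and 955 for ClCG02G022970 at rank 100. Just outside, ClCG04G009480 had 936 FPKM at rank 101, ClCG01G001960 had 924 at rank 102 and the next gene, ClCG08G017010, had 922. The limit of the choice therefore lay in a continuous run of values.

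The total of counted reads was 21143377 to 22351455 in drought libraries and 17907062 to 21852732 in control libraries. The median count of a member in a library was 25914 to 29192 in drought plants and 21412 to 42072 in control plants, so counting error was small beside the spread between plants for nearly all members. Control plant 2 stood apart from control plants 1 and 3 in many of the results below, and each of these is given with its own value or with and without it. No source names a cause for that plant's difference, and the labels class it as a control like the others. The leaf identity of the samples was checked on the genes described as antenna proteins, whose FPKM values summed to 8328 to 11986 in drought plants and 13478 to 52981 in control plants. Subunits of the photosystems and the oxygen-evolving complex (4 described genes) summed to 1318 to 1664 FPKM in drought plants and 885 to 3240 FPKM in control plants. The only gene with Rubisco words in its description, a Rubisco activase, went the other way. It was at 852 to 1263 FPKM in drought plants and 254 to 504 FPKM in control plants. The single gene described as a phloem protein was at 40.3 to 67.5 FPKM in drought plants and 116 to 181 FPKM in control plants. The edgeR test used below called it lower in drought (log2 fold change -1.66), as it did 8.08% of all tested genes. What part phloem had in the results for the members was not tested.

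The members took 22.4, 19.6 and 23.6% of all counted reads in drought plants 1, 2 and 3, against 33.6, 18.8 and 32.5% in control plants 1, 2 and 3. The mean share was 21.9 ± 2.07% in drought plants and 28.3 ± 8.26% in control plants (SD, n = 3 each). Control plant 2, although it had helped to choose the genes, gave them a smaller share of its reads than any drought plant did, so the shares of the groups overlapped. Control plants 1 and 3 lay well above all drought plants. In whole leaves, fewer cells of a type and less RNA per cell cannot be told apart. As a share of the summed FPKM, where the reads of each gene are divided by its length, the members held 32.1, 30.2 and 34.2% in drought plants, against 44.2, 31.5 and 43.3% in control plants. The first 10 members alone held 7.80, 5.83 and 7.63% of the reads in drought plants and 11.6, 6.41 and 12.1% in control plants.

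The concentration of the RNA pool could also be read without the chosen list, by counting how many genes make up 50% of the reads of a library. This took 597, 691 and 555 genes in drought plants, against 362, 886 and 300 genes in control plants. Control plants 1 and 3 had the most concentrated pools of the 6 and control plant 2 the most even one. The 100 highest genes of each library's own ranking held 26.0, 23.4 and 26.9% of its reads in drought plants and 34.8, 20.4 and 35.8% in control plants. The libraries had the same order as for the members, except that control plants 1 and 3 changed places.

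**Figure D1:**
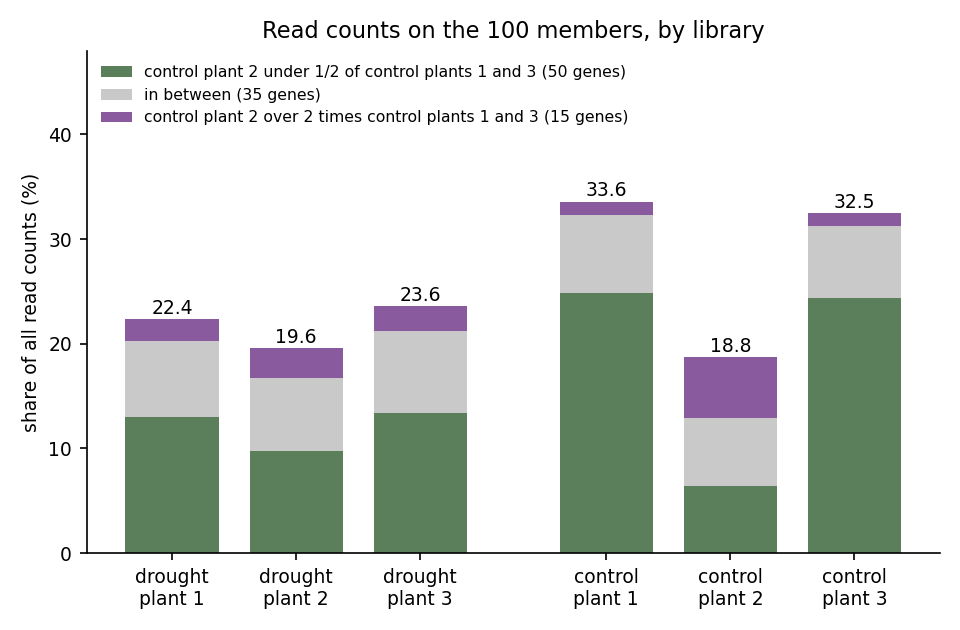
Share of all counted reads (%) that fell on the 100 members in each library, drought plants left and control plants right, with the total printed above each bar. Colours split the members by the level of control plant 2 against control plants 1 and 3 in FPKM. The 50 members at less than 1/2 of both fill 24.9 and 24.4% in control plants 1 and 3 but 6.38% in control plant 2, and 13.05, 9.73 and 13.4% in drought plants.

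The members were divided into 3 classes by the FPKM of control plant 2, with a limit of 2-fold against the other control plants. Their limits were set on these values, and they are descriptions without a test. In 50 members control plant 2 was at less than 1/2 of both other control plants, a pattern shown by 8.76% of the 16318 genes that passed the filter on low counts. Those 50 took 13.05, 9.73 and 13.4% of the reads in drought plants 1, 2 and 3, against 24.9, 6.38 and 24.4% in control plants 1, 2 and 3. Each of the 50 had a drought mean below the mean of control plants 1 and 3, and 39 of them were still among the 100 highest genes of drought plants. The class was formed by high values in control plants 1 and 3, so a lower value in any other plant was favoured. No such count is given for the other tested genes of this pattern. Relative to the mean of control plants 1 and 3, the median of these members was 0.405, 0.392 and 0.494 in drought plants 1, 2 and 3, and 0.246 in control plant 2.

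In another 15 members control plant 2 was above 2 times both other control plants, a pattern of 18.3% of the tested genes. They held 2.11, 2.89 and 2.39% of the reads in drought plants and 1.28, 5.88 and 1.23% in control plants, so control plant 2 stood above all 5 other libraries. The remaining 35 members lay between these limits, where 73.0% of the tested genes lay. Their shares were nearly level across the 6 libraries, with 7.20, 6.97 and 7.87% in drought plants and 7.40, 6.497 and 6.89% in control plants. The lower total share of drought plants than of control plants 1 and 3 thus lay in the first class of 50 genes. Those genes had been picked for high values in control plants 1 and 3.

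The first member, ClCG05G022680, was the highest gene of both groups and has no description. It stood at 23978, 19109 and 26380 FPKM in drought plants 1, 2 and 3, against 53811, 13231 and 56308 FPKM in control plants 1, 2 and 3. Control plant 2 was the lowest of the 6 libraries and the 2 other control plants were the highest. The fitted log2 fold change of drought over control was -1.11 ± 0.88 (SE), with an adjusted p of 0.427 from edgeR. Among the 75 members without description, the third one of the ranking, ClCG07G003520, had 18519, 8939 and 14570 FPKM in drought plants, against 13235, 4456 and 20231 FPKM in control plants. Its groups overlapped, and its log2 fold change of -0.14 ± 0.84 had no stable direction, since it was above 0 with library totals as scale and with the replicate block. ClCG11G003870, at rank 13, showed the same form, with 6926, 4295 and 5532 FPKM in drought plants and 6076, 1718 and 8237 FPKM in control plants. ClCG02G002750, at rank 10, had 2884, 2249 and 2690.1 FPKM in drought plants, against 7993, 1758 and 6499 FPKM in control plants. All 4 of these genes were lowest in control plant 2.

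**Figure D2:**
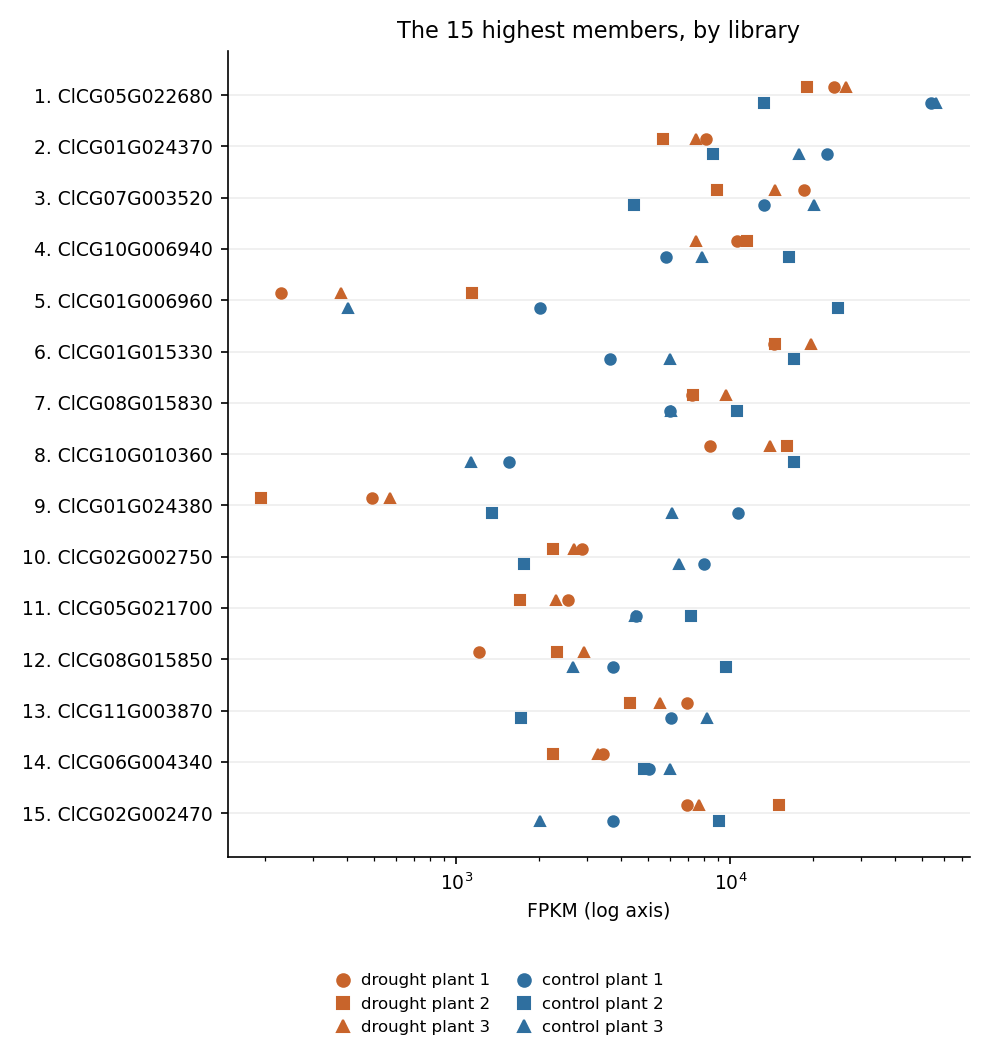
FPKM (log axis) of the 15 members with the highest control mean, each with 3 drought plants (orange, upper row) and 3 control plants (blue, lower row), the marker shape giving the plant number. Control plant 2 (blue square) lies at one end of the control values for most of these genes, as for ClCG05G022680 with 13231 FPKM and ClCG01G006960 with 24667 FPKM.

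Other high members went the opposite way in control plant 2. ClCG01G006960, described only as an unknown protein, owed rank 5 to that plant: it was at 229, 1143 and 378 FPKM in drought plants, against 2013, 24667 and 401 FPKM in control plants. Control plant 3 lay within the range of the drought plants, and the gene was at rank 151 of the drought means. ClCG10G010360, at rank 8, had 8452, 16028 and 13997 FPKM in drought plants, against 1556, 17053 and 1129 FPKM in control plants. Control plant 2 was thus just above the drought plants, and an order of magnitude above the other control plants. ClCG10G010370 lies 11492 bases away on the same strand with no other gene of the table between them. It had 1152, 1126 and 979 FPKM in drought plants, against 397, 9690.2 and 395 FPKM in control plants. Its drought plants lay above control plants 1 and 3 and far below control plant 2, and the sign of its fold change depended on that plant: -1.62 with all 6 libraries and 1.13 without control plant 2 (adjusted p = 0.355 and 0.00675, edgeR).

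ClCG01G015330, the second highest gene of drought plants and rank 6 of control plants, was at 14466, 14566 and 19682 FPKM in drought plants, against 3627, 17136 and 6020.4 FPKM in control plants. ClCG02G002470, rank 15 in control plants and 5 in drought plants, was at 6938, 15086 and 7665 FPKM in drought plants, against 3741, 9091 and 2019 FPKM in control plants. In both genes the control plants with low values were 1 and 3, and control plant 2 lay within the drought range. ClCG10G006940, at rank 4, had 10537, 11466 and 7465 FPKM in drought plants, against 5823, 16426 and 7874 FPKM in control plants. ClCG06G004340, at rank 14, was one of the few high members with even control plants: it had 3439, 2253 and 3293 FPKM in drought plants, against 5052, 4847 and 6043 FPKM in control plants. Each drought plant lay below each control plant, yet the gene did not pass the test (log2 fold change -1.04 ± 0.49, adjusted p = 0.195, edgeR).

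The light-harvesting antenna was the only function with several described members. Of 8 genes described as chlorophyll a-b binding proteins, 6 passed the filter on low counts and all 6 were members. Together they took 0.992, 0.691 and 0.998% of the reads in drought plants 1, 2 and 3, against 4.47, 1.11 and 3.03% in control plants 1, 2 and 3. The sums of the groups did not overlap, although control plant 2 was much nearer to the drought plants than to the other control plants. All 6 fitted log2 fold changes were below 0, with a median of -2.08 beside -0.94 for all 100 members and -0.03 for all tested genes. Of the 6, edgeR called 1 lower at an adjusted p under 0.05, beside 8.08% of all tested genes. DESeq2 called all 6 lower, beside 15.2% of all tested genes and 25 of the 100 members. All 6 descriptions came from the supplementary tables of genes that the study called on these same libraries. Calls and large changes among the 6 were therefore favoured by the source of the descriptions. The shares of all tested genes are no fair background for them.

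ClCG01G024370, the second member, and ClCG01G024380, the ninth, share 1 description, that of a chloroplast chlorophyll a-b binding protein. They are neighbours on chromosome 1 of the Charleston Gray genome, at 37491657 to 37492454 on the minus strand and 37494355 to 37495152 on the plus strand, with 1901 bases between them. Both are 798 bases long, and reads may have been split between them if their sequences are alike. ClCG01G024370 had 8168, 5665 and 7522 FPKM in drought plants, against 22461, 8674 and 17833 FPKM in control plants. Its log2 fold change was -1.45 ± 0.65 (adjusted p = 0.176, edgeR). ClCG01G024380 was much lower in drought, at 491, 194 and 570.5 FPKM in drought plants, against 10646, 1344 and 6136 FPKM in control plants. It fell by 4.12 ± 0.95 on the log2 scale (adjusted p = 0.0338, edgeR) and was at rank 217 of drought plants, against rank 9 of control plants. By the mean of drought plants the first gene therefore stayed among the 9 highest while the second left the upper 200. In drought plants 1, 2 and 3 the first gene was at ranks 7, 10 and 8, and the second at 175, 530 and 157. Only drought plant 2 thus placed the second gene outside the upper 200.

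In the other 4 antenna members, too, control plant 1 was the highest and control plant 2 the lowest of the control plants. ClCG08G006910, described as the antenna protein P4 type, had 1236, 818 and 1363 FPKM in drought plants, against 5557, 722 and 4394 FPKM in control plants. ClCG02G018440 had 952, 728 and 935 FPKM in drought plants, against 5912, 1467 and 2892 FPKM in control plants. ClCG10G006490 had 480.2, 306 and 582 FPKM in drought plants, against 4911, 699 and 2580.5 FPKM in control plants. In the last pair each drought plant lay below each control plant, and the adjusted p was 0.0585 for ClCG02G018440 and 0.0578 for ClCG10G006490 (edgeR). ClCG09G020650 had 658, 616 and 979 FPKM in drought plants, against 3479, 572 and 2265 FPKM in control plants, where control plant 2 was below every drought plant. Without control plant 2 edgeR called all 6 antenna members lower, beside 14.8% of the genes then tested and 56 of the 100 members. These calls, too, were favoured by the source of the descriptions. The log2 fold changes were then -1.81 for ClCG01G024370, -4.62 for ClCG01G024380, -2.44 for ClCG08G006910, -2.64 for ClCG02G018440, -3.33 for ClCG10G006490 and -2.24 for ClCG09G020650.

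This order of the control plants was also seen for Novel00460, described as subunit II of the photosystem I reaction centre, the member that docks ferredoxin on the stromal side. It had 943, 970.1 and 1189 FPKM in drought plants, against 2054, 513 and 1896 FPKM in control plants, and control plant 2 was the lowest of all 6. Catalase, the peroxisomal enzyme that breaks down the hydrogen peroxide of photorespiration, was represented by ClCG08G009360. It had 503, 717 and 694 FPKM in drought plants, against 1622, 2816 and 836 FPKM in control plants. Here control plant 2 was the highest, the groups did not overlap, and the log2 fold change was -1.56 ± 0.46 (adjusted p = 0.0659, edgeR). None of the members was described as Rubisco, as an enzyme of carbon fixation, as a ribosomal protein or elongation factor, or as an aquaporin, a histone, a metallothionein or a chaperone. As these lists hold mostly genes that the study called, the 75 members without description may include such genes.

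The test across all 16318 genes called 10 members lower and 2 higher in drought, out of 100. Over all tested genes the percentage called was 8.08% lower and 5.31% higher, so the members' counts were close to or below that background, and they are read as descriptions. The median log2 fold change of the members was -0.94, and 86 of the 100 were below 0, beside 51.5% of all tested genes. With library totals in place of TMM scaling (a scaling that sets the bulk of genes to no change) the median was -0.66 for members and 0.14 for all tested genes, against -0.94 for members and -0.03 for all tested genes with TMM, and 80 members were below 0, beside 43.4% of all tested genes. An unadjusted p under 0.05 was found for 26 members, beside 31.5% of all tested genes. Each drought plant lay below each control plant in TMM-scaled reads for 17 members, beside 18.5% of all tested genes, and above for 5 members, beside 19.9%.

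These counts depended on single libraries. Without control plant 2 the test called 56 members lower and 8 higher, beside 14.8% and 11.3% of the genes then tested, and all 12 earlier calls were among them. Without any 1 of drought plants 1, 2 and 3 only 1 member was called lower in each case, ClCG05G011130, and 0 higher, with 2 members higher at an unadjusted p under 0.05 from edgeR. Without control plant 1 the counts were 5 lower and 0 higher, with 3 higher at an unadjusted p under 0.05, and without control plant 3 they were 9 lower and 1 higher. With the replicate number as a block, 11 members were called lower and 1 higher, 9 of them shared with the 12. Calls over all tested genes moved too: 2185 with all 6 libraries, against 425, 507 and 314 without drought plants 1, 2 and 3. They were 642 without control plant 1, 2290 without control plant 3 and 2334 with the block. The changed counts are therefore not particular to the members.

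The lower calls covered several functions. Chosen after their values were seen, all 12 called members are given here. ClCG05G011130, described as an MLP-like protein, and ClCG05G011140, described as a major latex-like protein, belong to a plant family related to defence proteins of the Bet v type. They are adjacent on chromosome 5, at 12986506 to 12987722 on the plus strand and 12991036 to 12993870 on the minus strand. ClCG05G011130 had 104, 187 and 224 FPKM in drought plants, against 1117, 1327 and 709.6 FPKM in control plants. ClCG05G011140 had 346, 361 and 678 FPKM in drought plants, against 1601, 4284 and 2055 FPKM in control plants. In both genes each drought plant lay below each control plant, and they fell by 2.76 ± 0.37 and 2.62 ± 0.47 on the log2 scale (adjusted p = 0.0083 and 0.0168, edgeR).

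ClCG08G015880, described as a calcium-dependent protein kinase although the gene is 318 bases long, had close values within each group. It had 837, 854 and 726 FPKM in drought plants, against 3549, 3173 and 3225 FPKM in control plants, and fell by 2.25 ± 0.31 on the log2 scale (adjusted p = 0.00833, edgeR). It lies on the minus strand of chromosome 8 in a short region with ClCG08G015850, described as a calcium-binding EF-hand protein, and ClCG08G015830, which has no description. The 3 genes behaved differently. ClCG08G015850 had 1208, 2338 and 2927 FPKM in drought plants, against 3729.9, 9671 and 2662 FPKM in control plants, and ClCG08G015830 had 7233, 7307 and 9669 FPKM in drought plants, against 6022, 10598 and 6089.6 FPKM in control plants. Their log2 fold changes were -1.38 ± 0.51 for ClCG08G015850 and -0.04 ± 0.41 for ClCG08G015830, which did not pass the test, and the sign of ClCG08G015830 changed with library totals as scale. The difference between the 3 genes was not tested.

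The largest falls among the called members were in genes described as a proline-rich, an arabinogalactan and a pathogen induced protein. Of the 84 tested genes with cell wall words in their description, 41 were called lower and 18 higher, beside 8.08% and 5.31% of all tested genes. Most of these descriptions exist because the study called the gene, so those shares are no fair background. Other lists also held many calls. Of 23 tested defence genes 13 were called lower and 3 higher, of 10 lipid transfer genes 6 and 1, and of 53 chaperones 4 and 33. ClCG05G026650, described as a precursor of a proline-rich protein, a class of structural wall proteins, had 31.9, 16.8 and 11.1 FPKM in drought plants, against 1959.6, 61.8 and 997 FPKM in control plants. ClCG03G014520, described as an arabinogalactan protein, a heavily glycosylated protein of the cell surface, had 95.7, 70.7 and 93.2 FPKM in drought plants, against 2746, 186 and 1732 FPKM in control plants. In both genes control plant 2 was far below control plants 1 and 3 and still above every drought plant. They fell by 5.96 ± 1.28 and 4.46 ± 0.97 on the log2 scale (adjusted p = 0.0283 and 0.0291, edgeR). Novel00575, described by its match to a pathogen induced protein of cucumber, had 73.5, 65.8 and 61.9 FPKM in drought plants, against 951, 3773 and 357 FPKM in control plants. Its control plants spanned an order of magnitude while its drought plants were close together, and it fell by 4.67 ± 0.77 on the log2 scale (adjusted p = 0.0133, edgeR).

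The 3 remaining lower calls had smaller changes. ClCG05G021700, rank 11, is described as a heavy metal transport and detoxification protein, a family with a metal-binding domain. It had 2557, 1700.4 and 2306 FPKM in drought plants, against 4516, 7188 and 4492 FPKM in control plants. ClCG09G005640, of the late embryogenesis abundant 3 family, whose relatives are known from drying tissues, had 475, 319 and 422 FPKM in drought plants, against 839, 1890.5 and 1355 FPKM in control plants. ClCG01G001420, the granule-bound starch synthase that makes amylose, had 296, 227 and 274 FPKM in drought plants, against 757, 581 and 1549 FPKM in control plants. In all 3 genes the groups did not overlap. They fell by 1.45, 1.90 and 2.12 on the log2 scale (adjusted p = 0.042, 0.0224 and 0.0473, edgeR). With the replicate block ClCG05G021700 and ClCG01G001420 were no longer called (adjusted p = 0.0818 and 0.0545, edgeR). Nor were they called without a filter on low counts (adjusted p = 0.0543 and 0.0517, edgeR), and ClCG05G021700 was not called with library totals (adjusted p = 0.0557, edgeR).

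The test called 2 members higher in drought. ClCG09G021860, a cysteine proteinase inhibitor, which blocks papain-like proteases, had 5253, 4441 and 5972 FPKM in drought plants, against 834, 1466 and 1447 FPKM in control plants. It rose by 1.88 ± 0.38 on the log2 scale (adjusted p = 0.0233, edgeR) and was at rank 12 in drought plants and 79 in control plants. ClCG10G022680, a non-specific lipid-transfer protein, which binds and carries lipids outside the cell, had 4071, 8704 and 5439 FPKM in drought plants, against 1689, 1806 and 700.2 FPKM in control plants. It rose by 1.97 ± 0.51 (adjusted p = 0.0467, edgeR), was at rank 10 in drought plants and 69 in control plants, and was not called with the replicate block or without a filter on low counts (adjusted p = 0.0692 and 0.0533, edgeR). In both genes all drought plants lay above all control plants, control plant 2 included.

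**Figure D3:**
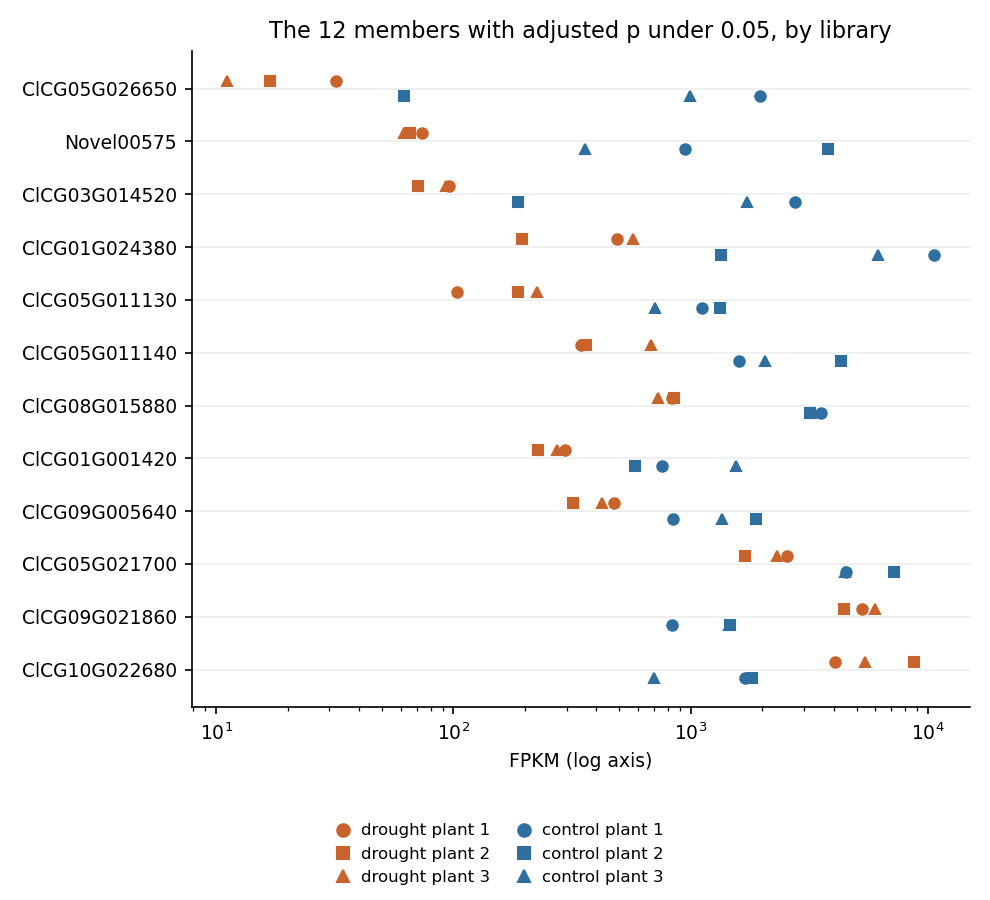
FPKM (log axis) of the 12 members with an adjusted p under 0.05 from edgeR, ordered by log2 fold change, with drought plants in orange (upper row of each gene) and control plants in blue (lower row). The groups do not overlap in these genes. Drought plants lie left of control plants in the upper 10 genes and right of them in ClCG09G021860 and ClCG10G022680.

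Several further members had large fitted changes that rested on 1 or 2 control plants. ClCG05G004510 entered the choice through control plant 2 alone: it had 2.93, 6.87 and 0.330 FPKM in drought plants, against 1.22, 3315 and 0.639 FPKM in control plants. Its log2 fold change was -8.26 with all 6 libraries and 1.51 without control plant 2 (adjusted p = 0.121 and 0.369, edgeR), so that its direction was set by 1 library. ClCG02G007210 had 9.61, 52.6 and 2.21 FPKM in drought plants, against 214, 4611 and 11.1 FPKM in control plants, and ClCG11G000680 had 247, 423 and 54.5 FPKM in drought plants, against 418, 4511 and 107 FPKM in control plants. In these genes plant 2 was the highest of both groups. The reverse held for ClCG06G011540, with 65.0, 0 and 2.06 FPKM in drought plants, against 1848, 21.6 and 1436 FPKM in control plants. It held too for ClCG02G004300, with 743, 109.5 and 441 FPKM in drought plants, against 1869, 83.6 and 1929.9 FPKM in control plants, and for ClCG10G002360, described as a leucine-rich repeat protein and named after its values were seen, with 375, 96.7 and 277 FPKM in drought plants, against 1875, 175 and 1612 FPKM in control plants. In these genes plant 2 was the lowest of both groups. With the replicate block, which compares plants of the same number, ClCG02G007210, ClCG06G011540 and ClCG10G002360 were called lower (adjusted p = 0.0137, 0.0117 and 0.0393, edgeR), against 0.0974, 0.149 and 0.115 without it. No source pairs the plants, and the block was taken from correlations in these same libraries. Such calls are therefore favoured for genes in which plant 2 is extreme in both groups, and they are descriptions.

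Of the 100 members, 72 were also among the 100 genes with the highest mean FPKM of drought plants, and 28 were not. Within the first 50 drought ranks there were 45 members, within 200 there were 86 and within 500 there were 93. The first gene was the same in both groups, and 7 of the first 10 members were among the 10 highest of drought plants. The 72 members took 21.2, 18.5 and 22.4% of the reads in drought plants, against 29.0, 14.2 and 29.0% in control plants. The 28 that left the upper 100 took 1.202, 1.13 and 1.26% in drought plants, against 4.57, 4.54 and 3.54% in control plants. This difference is favoured by the choice of genes high in control and lower in drought plants. Only the total of control plant 2 was level with that of control plant 1. ClCG01G006960 took 1.07% of the reads of control plant 2, against 0.087 and 0.017% in control plants 1 and 3. ClCG01G024380 took 0.107% of the reads of control plant 2, against 0.850 and 0.490% in control plants 1 and 3. Those 28 included 9 of the 10 members called lower, and ClCG05G021700 was the exception.

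The 6 members with the lowest drought ranks are those with the 6 lowest fitted log2 fold changes, of which 3 (ClCG05G026650, Novel00575 and ClCG03G014520) were called. ClCG05G004510 was at rank 12451 in drought plants, ClCG05G026650 at 5422, ClCG02G007210 at 5111 and ClCG06G011540 at 4939. Novel00575 was at rank 1740 and ClCG03G014520 at 1356, and no other member was below rank 1000. Of the first 15 members, ClCG01G006960 and ClCG01G024380 alone left the upper 100, at ranks 151 and 217. Gains of rank were limited by the choice, as a gene at rank 1 cannot rise. ClCG05G006160, the translationally controlled tumor protein, a conserved cytosolic protein linked to growth, was at rank 19 in drought plants and 77 in control plants. It had 2895, 2558 and 2732 FPKM in drought plants, against 1329, 1708 and 814 FPKM in control plants, without overlap of the groups and with an adjusted p of 0.117 from edgeR. ClCG10G014200 was at rank 7 in drought plants and 29 in control plants, with 10062, 6209 and 11328 FPKM in drought plants, against 8097, 491 and 886 FPKM in control plants. Control plant 1 reached the drought level of that gene and control plants 2 and 3 were about an order of magnitude lower. ClCG01G021610 had 1969, 2561 and 2228 FPKM in drought plants, against 761, 1954 and 976 FPKM in control plants, and ClCG02G019580 had 1896, 1815 and 1990.4 FPKM in drought plants, against 892, 1347 and 1216 FPKM in control plants. ClCG10G021120 was at rank 14 in drought plants and 51 in control plants, with 2366, 4151 and 3679 FPKM in drought plants, against 1593, 3148 and 1006 FPKM in control plants.

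**Figure D4:**
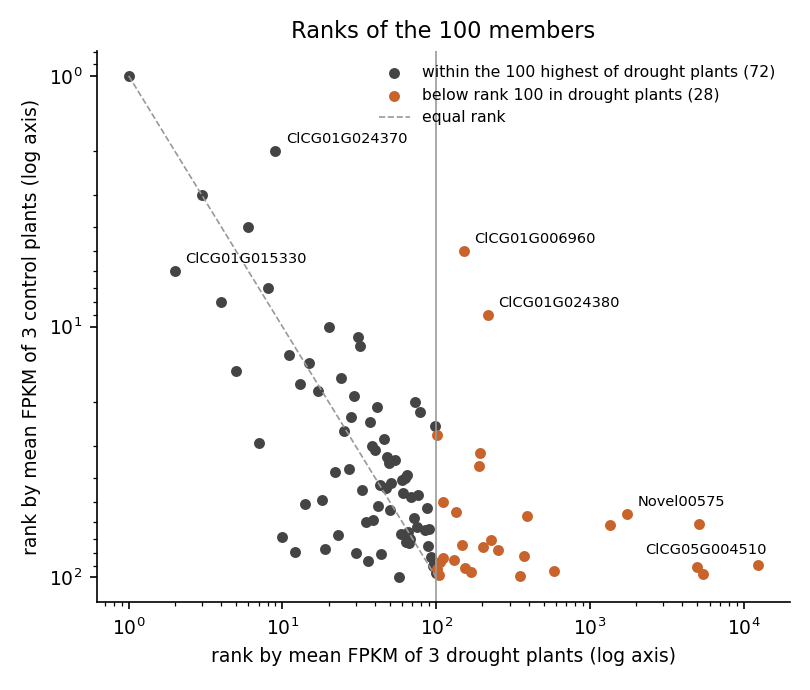
Rank of each of the 100 members by the mean FPKM of 3 drought plants (x axis, log) and of 3 control plants (y axis, log, highest genes on top). Points right of the vertical line at rank 100 are the 28 members outside the 100 highest genes of drought plants, among them ClCG01G006960 at rank 151, ClCG01G024380 at rank 217 and ClCG05G004510 at rank 12451.

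Their places were taken by 28 other genes, chosen by their drought mean. These took 4.32, 4.62 and 4.45% of the reads in drought plants, against 2.14, 1.78 and 2.75% in control plants. The 5 highest were ClCG01G000120, ClCG05G004850, ClCG02G002460, ClCG10G015940 and ClCG10G006150. ClCG01G000120, a heat shock protein by its description, had 759, 3652 and 4566 FPKM in drought plants, against 1.44, 3.85 and 1.07 FPKM in control plants. ClCG05G004850, an early light-induced protein, which is a relative of the antenna proteins made under light stress, had 1779, 3639 and 2349 FPKM in drought plants, against 636, 595 and 741 FPKM in control plants. ClCG02G002460, described as a glycine-rich protein, had 2019.9, 3097 and 1795 FPKM in drought plants, against 100.4, 204 and 67.0 FPKM in control plants. In each of the 5 highest genes, including those given next, the drought plants lay above the control plants without overlap. The choice by drought mean favours this. In TMM-scaled reads it was found for 18 of the 28 genes, beside 19.9% of all tested genes. ClCG10G015940, a dehydrin, one of the hydrophilic proteins that accumulate in drying cells, had 2006, 2246 and 1774 FPKM in drought plants, against 558, 1393 and 660.5 FPKM in control plants. ClCG10G006150, described as an unknown protein, had 1722, 1678 and 1759 FPKM in drought plants, against 348, 549 and 463 FPKM in control plants. Most of the 28 were already high in control plants, with 21 of them within the first 250 control ranks.

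The ranking could be compared between plants without using the plant itself in the choice. The 100 highest genes of drought plants 2 and 3 included 92 of the 100 highest of drought plant 1, and the corresponding counts were 91 for drought plant 2 and 95 for drought plant 3. For control plants the counts were 81 for control plant 1, 55 for control plant 2 and 74 for control plant 3. The 100 genes chosen from control plants 1 and 3 were found in larger number in the upper 100 of drought plants (73, 67 and 75 genes) than in that of control plant 2. Pairs of drought plants shared 89, 92 and 90 genes of their own upper 100. Control plants 1 and 3 shared 87, control plants 1 and 2 shared 56, and control plants 2 and 3 shared 49, fewer than the 55 that each drought plant shared with control plant 2. A set of 41 genes was in the upper 100 of every library. All 41 were members, which the choice by the mean of the control plants all but settles in advance.

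The spread between plants of one group was taken as the SD of log2 CPM, where CPM are counts scaled to a common TMM-adjusted library total and 1 CPM was added before the log. The median over the members was 0.278 between drought plants and 1.21 between control plants. For all tested genes the medians were 0.210 between drought plants and 0.421 between control plants. The control SD was larger than the drought SD for 95 of the 100 members and for 78.5% of the tested genes. Control values had entered the choice. The 100 highest genes of drought plants, chosen without control values, gave medians of 0.260 between drought plants and 0.944 between control plants. Of those 100 genes 72 were members, so this set mostly repeats the same genes and cannot show what part the choice had in the spread. Without control plant 2 the spread was like that of other genes: the SD between control plants 1 and 3 alone had a median of 0.241 for the members and 0.248 for all tested genes. In FPKM, the highest plant exceeded the lowest by more than 2-fold for 14 members in drought plants and 84 in control plants, and by more than 10-fold for 3 members in drought plants and 13 in control plants.

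**Figure D5:**
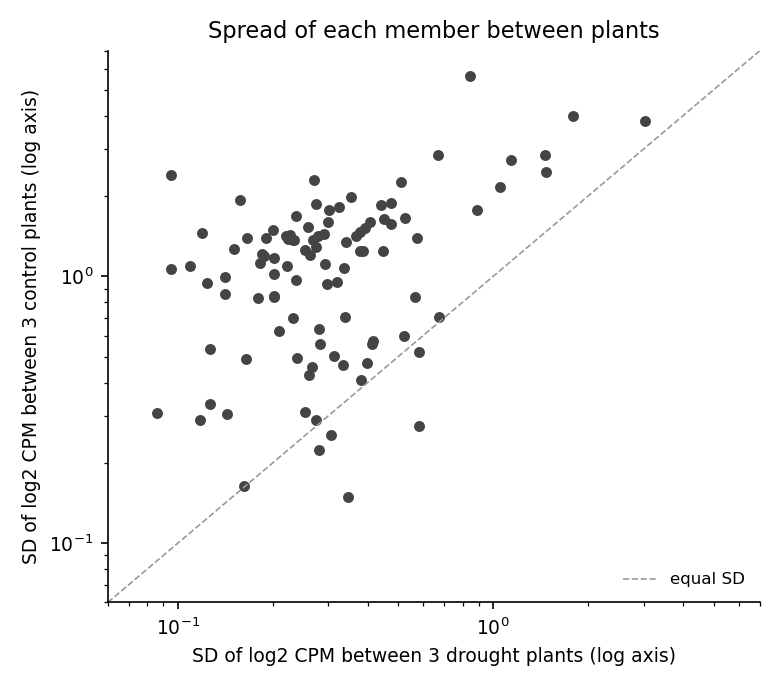
SD of log2 CPM between the 3 drought plants (x axis, log) and between the 3 control plants (y axis, log) for each of the 100 members, with the line of equal SD dashed. Of the members, 95 lie above the line, and the medians are 0.278 between drought plants and 1.21 between control plants.

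The plant with the outlying value was mostly the same. Control plant 2 was the lowest of all 6 libraries for 52 members and the highest for 18, beside 23.6% and 26.9% of the tested genes. On the log2 scale it was nearer to the mean of the drought plants than to the mean of the other control plants for 74 members, beside 46.4% of the tested genes. The same count was 29 members for control plant 1 and 37 for control plant 3, beside 29.6% and 44.0% of the tested genes. Values of all 3 control plants had entered the choice of members. The shares of the tested genes are therefore no fair background, and these counts are descriptions. The 5 members with the most even control plants were ClCG05G021700, ClCG10G011400, ClCG08G015830, ClCG02G004290 and ClCG05G011130, with SDs of 0.148 to 0.276. ClCG10G011400 had 2434, 2983 and 2931 FPKM in drought plants, against 2148, 2268 and 1928 FPKM in control plants, and was nearly level over all 6 libraries. ClCG02G004290 had 1402, 1950.3 and 2061 FPKM in drought plants, against 2293, 3068 and 1575 FPKM in control plants. At the other end, the 10 members with the largest control SD, from 2.26 for ClCG10G014200 to 5.62 for ClCG05G004510, included ClCG01G006960, ClCG10G010370, ClCG11G000680, ClCG02G007210, ClCG03G014520, ClCG02G004300, ClCG06G011540 and ClCG05G026650.

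Length entered the choice through FPKM. The median length listed for them was 923 bases, beside 1529 bases for all tested genes. FPKM divides by length, so short genes are favoured in such a ranking, which makes the shorter length no finding. The 100 genes with the highest mean CPM of control plants, of which 75 were members, had a median of 1234 bases. Position was not used in the choice. Members lay on 11 chromosomes, with 16 on chromosome 5, 15 on chromosome 1, 13 each on chromosomes 2 and 10, and 1 on chromosome 4. Of the tested genes, 12.8% lay on chromosome 5, 11.3% on chromosome 1, 10.4% on chromosome 2, 9.83% on chromosome 10 and 5.25% on chromosome 4. Adjacent or nearly adjacent members, with gaps of at most 50000 bases, formed 8 pairs, among them the antenna, latex-like and EF-hand genes above. Up to 4 other genes of the table lay between the members of a pair, and no count for other genes is given beside it. In Novel00575 and Novel00114 the length behind the FPKM was shorter than the listed length, so that their ranks rest on a length that is not given in the sources used.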

How the data were processed

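Leaf RNA of 3 drought-stressed and 3 control plants was measured by RNA-Seq. Counts of reads over the gene models of the Charleston Gray genome were deposited by the authors, together with FPKM values, in which the counts are scaled by gene length and library total. For 247 genes the length behind the deposited FPKM differed from the listed gene length (in bases) by more than 1%. Alignment, counting and testing are credited to TopHat, HTSeq and DESeq in the paper, whereas the submitters' processing notes name fastp, HISAT2 2.1.0, featureCounts and DESeq2. The library kit does not mark strand, so reads of overlapping genes cannot be told apart. Columns holding the authors' comparison (fold changes and their p-values) were not used, nor were 6 columns of counts divided by size factors. Drought columns carry the prefix TT where the labels have DT, and their numbers match.

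Genes were ranked by the mean FPKM of the 3 control plants and the first 100 kept. Ranks, shares of counts and SDs have no test. Differences were tested on the deposited counts of all genes with edgeR 4.0.16 in R 4.3.3 (quasi-likelihood, TMM scaling, filterByExpr at 10 reads a library and 15 in total, treatment only, two-sided, Benjamini-Hochberg adjustment over 16318 genes, threshold 0.05). The script was tested on simulated data. DESeq2 1.42.0, no filter on low counts, library totals, a replicate block and leaving out each library were alternatives, as were other ways to choose and rank the members. Deviations from the group means correlated at 0.179, 0.448 and 0.153 between libraries of the same number, all above the bound of 0.1, so the numbers were taken to pair the libraries in the block, although no source names a shared block and drought plant 1 correlated at 0.338 with control plant 3.

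Named genes are the 15 highest members, the 10 with the lowest and 10 with the highest log2 fold change, the 10 with the largest and 5 with the smallest SD between control plants, 5 other genes highest in drought plants, the genes at the limit of the choice and the members of lists fixed by words in descriptions. Members and lists were chosen with earlier results of these data known.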

Additional observations from a re-analysis of the deposited data

How the results depend on the processing

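DESeq2 called 4120 genes, 25 of the members as lower and 3 as higher, against 2185, 10 and 2 with edgeR, and gave no adjusted p for 3 members (ClCG05G004510, ClCG10G010360 and ClCG10G010370). Without a filter on low counts 1983 genes were called, with 8 members lower and 1 higher. With library totals the counts were 1795, 9 and 2. With the replicate block 2334 genes, 11 members lower and 1 higher were called; the members whose call it changed are named above, and it changed no other member's call. Leaving out 1 library at a time gave 314 to 4357 called genes, 1 to 56 members lower and 0 to 8 higher. The counts fell below 1/1.5 of their main value without drought plant 1, 2 or 3 or control plant 1 (425, 507, 314 and 642 called genes) and rose without control plant 2 (4357). The cause of these differences was not tested.

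The mean share of reads taken by the members was 24.6% in drought plants when they were chosen by mean CPM, 15.01% for 50 members and 28.5% for 200 members, against 21.9%. As a share of summed FPKM it was 32.2% in drought plants and 39.7% in control plants. Leaving out 1 library moved the share over 20.8 to 23.1% in drought plants and 25.7 to 35.0% in control plants, and the number of members in the drought upper 100 over 70 to 74. The median SD of log2 CPM ranged over 0.274 to 0.286 between drought plants and 0.242 to 1.41 between control plants, the lowest value being that without control plant 2. Choosing by median FPKM, a prior of 0.1 CPM and CPM by library totals moved none of these values by 1 SD or 1.5-fold.

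Of the log2 fold changes of 45 named members, 6 changed sign under an alternative. ClCG07G003520 was at 0.15 with library totals, 0.16 with the replicate block, 0.12 without drought plant 2 and 0.50 without control plant 3, and the lowest value with 1 library left out was -0.59. ClCG08G015830 was at 0.092 with library totals, 0.036 without drought plant 1, 0.055 without drought plant 2 and 0.094 without control plant 2, with a lowest value of -0.22. ClCG11G003870 was at 0.064 with library totals, 0.12 with the replicate block and 0.34 without control plant 3, with a lowest value of -0.69. Without control plant 2, ClCG10G006940 was at 0.18, ClCG10G010370 at 1.13 and ClCG05G004510 at 1.51, and their lowest values were -0.40 and -2.15 without control plant 1 and -9.25 without drought plant 2.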
